A study of Mus musculus with 4 samples.

Results

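The genes described here are 38 members of the nuclear receptor superfamily other than Hnf4a and Hnf4g, taken by symbol from the table of 22457 gene symbols measured by RNA-seq in mouse jejunal epithelium. They were chosen by family, not by their values. Of the 38, 30 had a mean of at least 1 FPKM (a level scaled to transcript length and library size) and were tested, 8 lay under that filter, and 3 of those 8 were listed at 0 in every library.

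Nuclear receptors are transcription factors with a zinc finger DNA-binding domain and a pocket that, in many members, holds a small lipophilic ligand such as a fatty acid, an oxysterol, a bile acid, a retinoid, vitamin D or a steroid. Ligand binding changes which coactivators or corepressors the receptor carries, and many members bind DNA as a pair with a retinoid X receptor at repeats of a short hexamer. In the intestinal epithelium, family members are known as sensors of absorbed lipids, bile acids, vitamins and foreign compounds.

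The study compared 2 libraries labelled Hnf4a-/-;Cdx2-/- with 2 libraries of Cre- controls, all from adult animals, with 129xC57/Bl6xSvJ mixed given as the strain. Hnf4a and Cdx2 are transcription factors of the intestinal epithelium. Every mouse, controls included, had received 1 mg of tamoxifen on each of 5 days, and epithelium was released with 5 mM EDTA over 45 minutes at 4 °C. Not given in the sources used here are the driver of the Cre, the deleted exons and the time of day of sampling, and the labels call the 2 libraries of a genotype independent biological replicates.

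Hnf4a stood at 31.6 and 48.2 FPKM in the libraries labelled double knockout, against 156 and 202 FPKM in controls (limma, adjusted p = 0.0147). Cdx2 stood at 160 and 161 FPKM in the libraries labelled double knockout, against 70.9 and 65.2 FPKM in controls, a rise that goes against the label (limma, adjusted p = 0.0150). For that reason the mutants are named by their label throughout, and each direction below depends on it. The libraries held RNA of epithelium, with a summed level of 8 epithelial markers of 9013 and 9493 FPKM in the libraries labelled double knockout and 6381 and 7900 FPKM in controls. The sum was carried by keratins, and single markers moved both ways. Krt19 had 2288 and 2726 FPKM in labelled double knockouts against 696 and 741 FPKM in controls and was called higher (limma, adjusted p = 0.0150). Vil1, the villin gene of the microvillus core, had 508 and 487 FPKM in labelled double knockouts against 970 and 1024 FPKM in controls and was called lower (limma, adjusted p = 0.0411). Summed mesenchyme markers stood at 4.18 and 9.29 FPKM in labelled double knockouts against 7.49 and 8.28 FPKM in controls, smooth muscle markers at 2.35 and 2.26 FPKM in labelled double knockouts against 1.94 and 2.23 FPKM in controls, and endothelium markers at 1.47 and 1.50 FPKM in labelled double knockouts against 1.02 and 1.65 FPKM in controls. Immune markers summed to 49.6 and 132.9 FPKM in the libraries labelled double knockout, against 60.1 and 77.5 FPKM in controls, and limma called none of the 6 tested, with 0 at an unadjusted p under 0.05. Neuron and glia markers summed to 17.8 and 2.05 FPKM in labelled double knockouts against 1.13 and 0.91 FPKM in controls. Ret alone was 17.6 FPKM in double knockout replicate 1, and Sox10 was listed at 0 throughout. Whether these cell types had a part in the results below was not tested. The values are FPKM, so the depth of the libraries is unknown, and in bulk tissue fewer cells of a type and less RNA per cell cannot be told apart.

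Across the 38 receptors, the summed level was 611 and 517 FPKM in the libraries labelled double knockout, against 840.2 and 788 FPKM in controls. The sum of means was 564 FPKM in the libraries labelled double knockout and 814 FPKM in controls. Vdr contributed most to the gap, with a difference in means of -72.1 FPKM, followed by Esrra (-52.7), Nr1d1 (-38.0), Nr1d2 (-24.1), Nr1i3 (-21.1) and Rxra (-14.4). Pparg ran the other way, with a difference of 24.5 FPKM. By class, the sums of the retinoic acid, thyroid hormone and vitamin D receptors were 51.2 and 54.9 FPKM in labelled double knockouts against 147.6 and 129 FPKM in controls. The clock receptors summed to 16.8 and 21.6 FPKM in labelled double knockouts against 81.9 and 80.7 FPKM in controls. The fatty acid receptors summed to 87.1 and 75.3 FPKM in the libraries labelled double knockout and to 62.9 and 69.2 FPKM in controls. The oxysterol and bile acid receptors, by contrast, overlapped between the groups, at 146 and 114 FPKM in labelled double knockouts against 142 and 119 FPKM in controls.

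**Figure D1:**
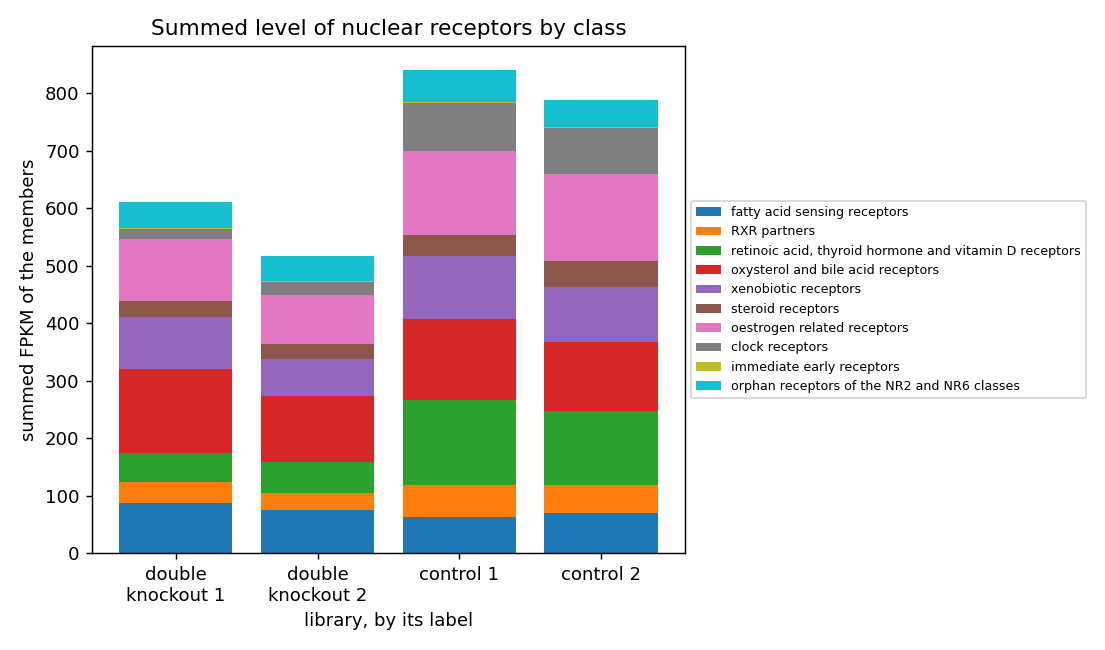
Stacked bars give the summed FPKM of the 38 nuclear receptors in each of the 4 libraries, with 1 colour per receptor class. The totals are 611 and 517 FPKM in the libraries labelled double knockout and 840.2 and 788 FPKM in controls, and the bands of vitamin D, thyroid hormone and retinoic acid receptors and of clock receptors are narrower in the libraries labelled double knockout.

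By level, Esrra ranked first of the receptors in both groups, and 95.8% of all symbols had a lower mean in the libraries labelled double knockout and 97.0% in controls. In controls, it was followed by Vdr, Nr1i2, Nr1h3, Nr1d1 and Nr1h2. With the FPKM estimated for each library alone, Nr2f6 stood at rank 4 in controls and Nr1h3 at rank 7. The ranges of Vdr (80.4 to 100.2 FPKM) and Nr1i2 (66.2 to 75.1 FPKM) did not overlap in controls, whereas Nr1h3, Nr1d1 and Nr1h2, all between 41.9 and 55.9 FPKM, overlapped one another. In the libraries labelled double knockout the order after Esrra was Nr1i2, Nr1h3, Nr1h2, Nr2f6 and Pparg, and Nr1i2 (54.9 to 77.1 FPKM) and Nr1h3 (42.7 to 67.4 FPKM) overlapped. In the libraries labelled double knockout Vdr stood at rank 12, Nr1d1 at rank 15, Nr1i3 at rank 16, Nr1d2 at rank 17 and Pparg at rank 6. In controls Vdr stood at rank 2, Nr1d1 at rank 5, Nr1i3 at rank 10, Nr1d2 at rank 11 and Pparg at rank 19. Pparg made up 5.81% of the summed receptor level in the libraries labelled double knockout and 1.02% in controls, and Vdr 3.23% in the libraries labelled double knockout and 11.1% in controls. In all, 16 receptors averaged 10 FPKM or more in the libraries labelled double knockout and 18 in controls.

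**Figure D2:**
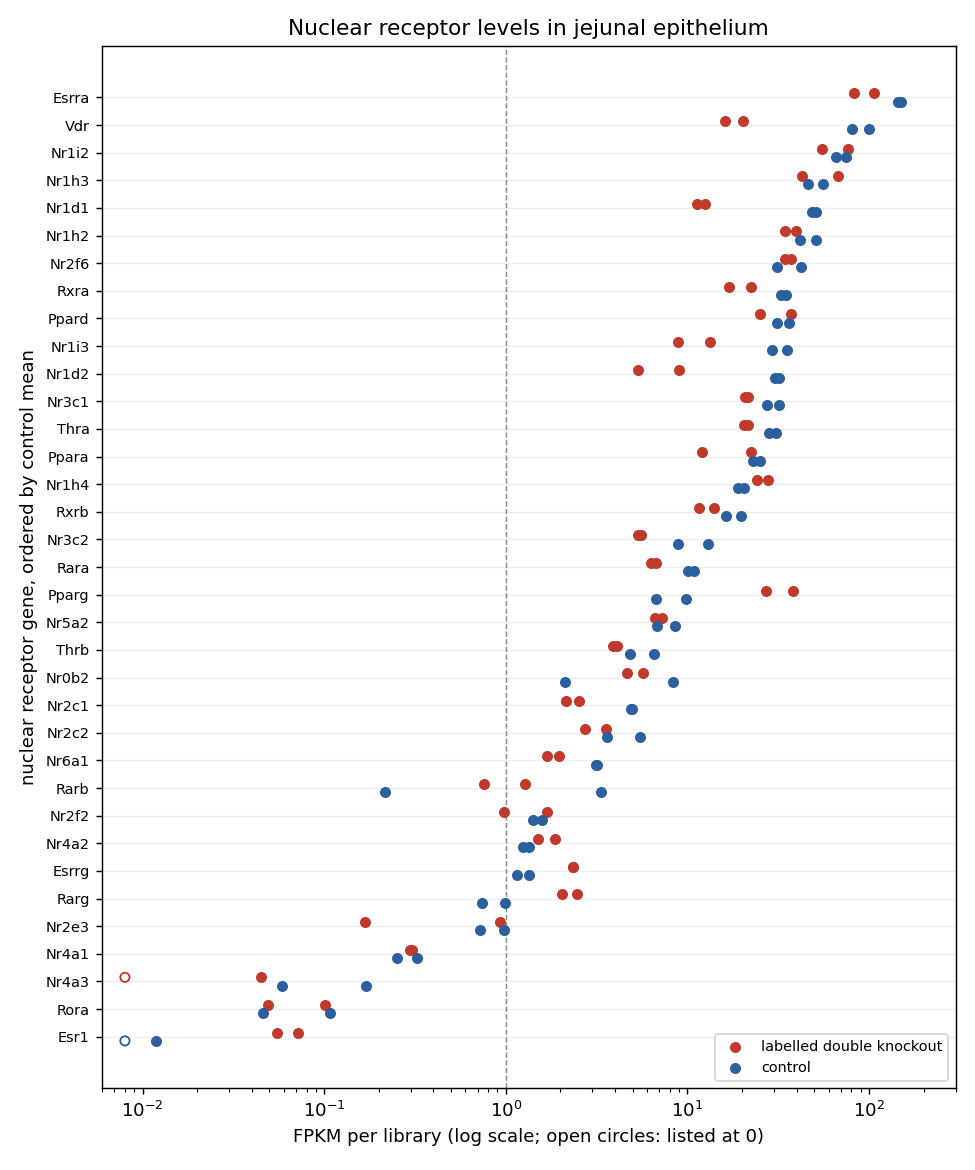
Points give the FPKM of each nuclear receptor in each library on a log axis, red for the 2 libraries labelled double knockout and blue for the 2 controls, with genes ordered by control mean, the filter of 1 FPKM dashed and open circles for values listed at 0. The red and blue points lie well apart for Vdr, Nr1d1, Nr1d2, Nr1i3 and Pparg, and the control points of Rarb and Nr0b2 lie far from each other.

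**Figure D3:**
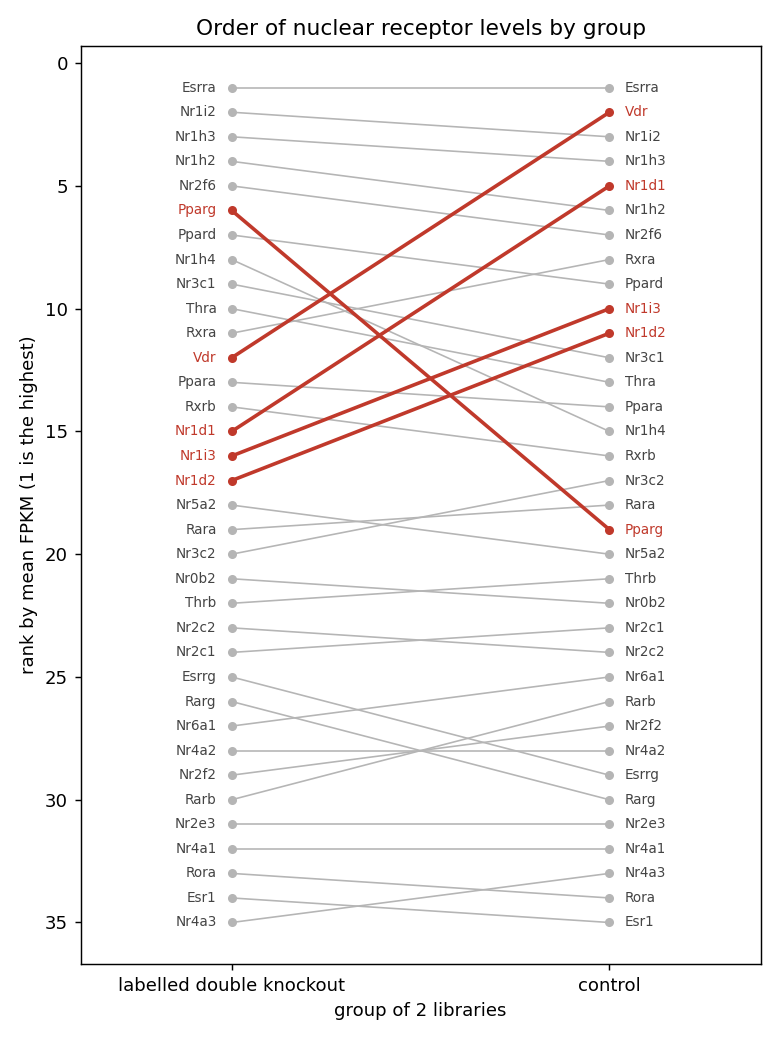
Lines join the rank of each nuclear receptor by mean FPKM in the libraries labelled double knockout (left) to its rank in controls (right), with 1 the highest and the 5 called receptors in red. Pparg stands at rank 6 on the left and 19 on the right, and Vdr at rank 12 on the left and 2 on the right.

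Of the 30 tested receptors, limma called 1 higher in the libraries labelled double knockout (3.33%, against 3.77% of all 10883 genes tested) and 4 lower (13.3%, against 5.8% of all genes tested), at an adjusted p under 0.05. The receptor called higher was Pparg, and those called lower were Vdr, Nr1d1, Nr1d2 and Nr1i3. The median log2 fold change was -0.41 over the 30 receptors and 0.02 over all genes tested, and 23 receptors (76.7%) had a value below 0, against 47.7% of all genes. With the FPKM estimated for each library alone, 19 receptors lay below 0 and 23 below the median of all genes, which then was 0.17. The 2 libraries of each group did not overlap, with the labelled double knockouts below, in 17 of 30 receptors (against 29.5% of all genes tested), and with them above in 5 (against 31.2%). At an unadjusted p under 0.05 there were 15 of 30 receptors (50.0%) and 3079 of all genes (28.3%). The authors' deposited table also called 1 receptor higher and 4 lower. In the authors' deposited table the calls were Pparg, Vdr, Nr1d1 and Nr1d2 (q = 0.000868 for each) and Nr3c2 (q = 0.0245), while Nr1i3 was not called (q = 0.0951).

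**Figure D4:**
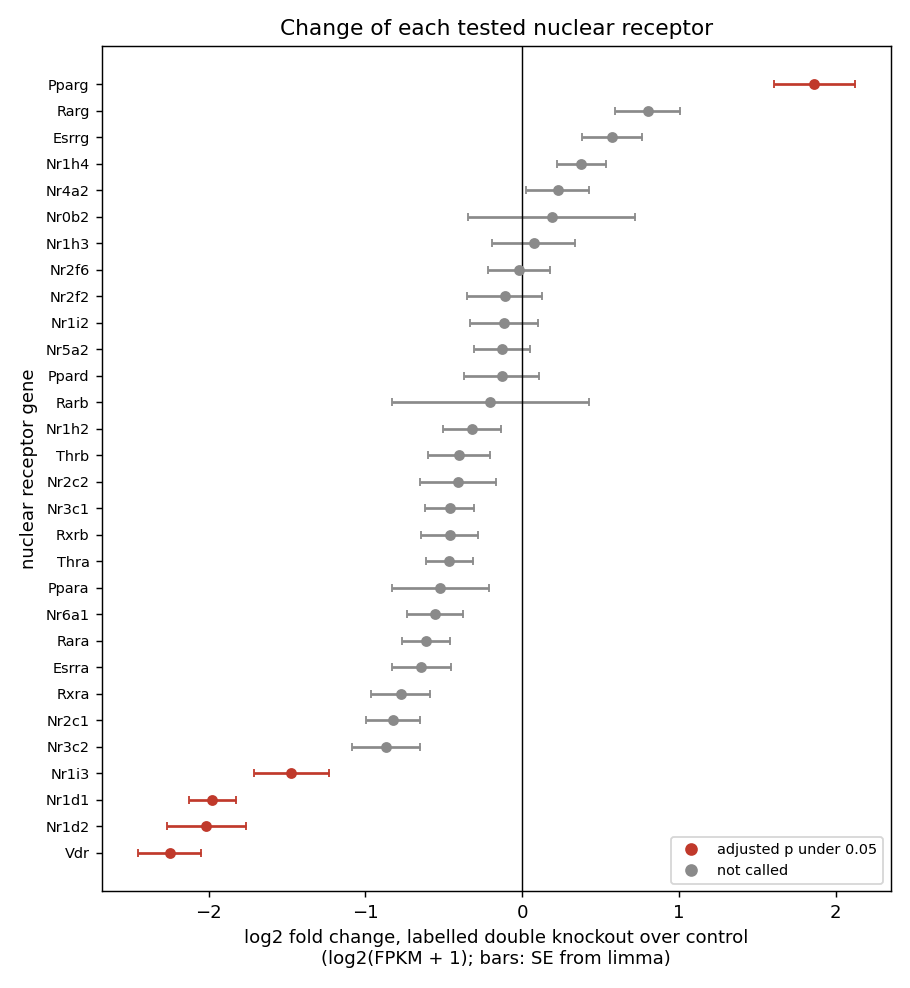
Points give the log2 fold change of the 30 tested nuclear receptors, labelled double knockout over control on the log2(FPKM + 1) scale, with bars for the SE from limma and red for an adjusted p under 0.05. Pparg lies at 1.86 and Vdr, Nr1d2, Nr1d1 and Nr1i3 lie between -2.25 and -1.47, while the other 25 are not called.

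The 250 bases before the RefSeq start site (build GRCm38.p6) are printed to show the DNA next to the start sites of the called receptors. They are given for the 4 receptors called lower and for 1 of the 3 start sites of Pparg, chosen because it holds the CDX letters. Motif matches are in capitals.
Vdr (chr15:97908297-97908546, minus strand): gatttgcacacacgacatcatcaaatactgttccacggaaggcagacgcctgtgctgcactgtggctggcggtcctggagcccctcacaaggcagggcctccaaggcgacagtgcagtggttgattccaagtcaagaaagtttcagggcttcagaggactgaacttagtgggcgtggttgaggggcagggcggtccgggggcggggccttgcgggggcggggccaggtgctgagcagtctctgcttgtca
Nr1d1 (chr11:98775378-98775627, minus strand): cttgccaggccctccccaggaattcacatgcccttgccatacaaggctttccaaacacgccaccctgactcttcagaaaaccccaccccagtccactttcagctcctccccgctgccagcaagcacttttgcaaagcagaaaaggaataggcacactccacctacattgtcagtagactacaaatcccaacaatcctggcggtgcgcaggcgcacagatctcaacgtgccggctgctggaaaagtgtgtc
Nr1d2 (chr14:18239107-18239356, minus strand): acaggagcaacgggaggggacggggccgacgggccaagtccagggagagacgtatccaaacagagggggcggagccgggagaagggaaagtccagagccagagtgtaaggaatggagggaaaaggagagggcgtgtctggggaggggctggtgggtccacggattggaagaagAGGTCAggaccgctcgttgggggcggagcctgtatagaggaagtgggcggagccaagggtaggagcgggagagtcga
Nr1i3 (chr1:171213720-171213969, plus strand): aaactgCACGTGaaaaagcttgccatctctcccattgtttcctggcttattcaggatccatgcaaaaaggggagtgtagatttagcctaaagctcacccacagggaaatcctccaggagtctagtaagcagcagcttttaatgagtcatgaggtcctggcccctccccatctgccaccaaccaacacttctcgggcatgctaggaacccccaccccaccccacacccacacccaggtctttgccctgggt
Pparg (chr6:115362099-115362348, plus strand): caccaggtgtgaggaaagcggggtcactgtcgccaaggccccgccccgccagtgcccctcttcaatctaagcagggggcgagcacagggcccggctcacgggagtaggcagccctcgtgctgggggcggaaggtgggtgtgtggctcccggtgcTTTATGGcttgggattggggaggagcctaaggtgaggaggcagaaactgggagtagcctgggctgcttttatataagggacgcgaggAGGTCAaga

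Capitals in Nr1d2 mark the hexamer AGGTCA, which many nuclear receptors bind, at bases -77 to -72 from the start site. Capitals in Nr1i3 mark the E-box CACGTG, which clock activators bind, at -244 to -239. In Pparg they mark TTTATNG, read here as a CDX motif, at -96 to -90, and AGGTCA at -9 to -4. At another Pparg start site (chr6:115360894-115361143, plus strand) AGGTCA lay at -28 to -23, and the remaining one held no match. None of the letters searched occurred in the windows of Vdr and Nr1d1. Both strands were searched, and AGGTCA and TNGGTCA, the motif of the ROR and REV-ERB receptors, can overlap. Over the 54 start sites of the 36 receptors matched in the table, TTTATNG was found in 11.1% (9.81% of all 32851 promoters of the same length), AGGTCA in 18.5% (14.0%), CACGTG in 7.41% (6.02%) and TNGGTCA in 7.41% (9.19%). The letters CAAAGTCCA, an HNF4 motif, were found in 0 of 54, against 0.384% of all promoters. The G and C share was 61.2% for Vdr, 54.8% for Nr1d1, 63.6% for Nr1d2, 53.2% for Nr1i3 and 63.6% for the Pparg window printed, with a median of 52.4% over all promoters. A match of letters is a description and not a bound site.

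Vdr, the receptor for the active form of vitamin D and a regulator of intestinal calcium absorption, fell 4.95-fold. It had 16.1 and 20.4 FPKM in the libraries labelled double knockout, against 100.2 and 80.4 FPKM in controls. Both libraries labelled double knockout were far below both controls. The log2 fold change was -2.25 ± 0.20 (SE, limma, adjusted p = 0.00806), and the adjusted p was 0.0543 without control replicate 1. The gene lies on chromosome 15 from 97684858 to 97738727 in mm9. Of 6 tested genes of a list of vitamin D targets, 1 was called higher (16.7%, against 3.77% of all genes) and 1 lower (16.7%, against 5.8%), with a median log2 fold change of 0.74. Cldn2, a claudin of cation-permeable junctions, had 118 and 79.3 FPKM in the libraries labelled double knockout, against 18.4 and 7.23 FPKM in controls (log2 fold change 2.95 ± 0.45, SE, limma, adjusted p = 0.0241). Slc30a10, a manganese exporter, had 0.855 and 0.262 FPKM in labelled double knockouts against 7.13 and 11.5 FPKM in controls (log2 fold change -2.72 ± 0.31, SE, limma, adjusted p = 0.0127). The call of Cldn2 was lost without control replicate 2 and without either library labelled double knockout (adjusted p up to 0.0817), and that of Slc30a10 without either control (up to 0.0684). S100g, the calbindin that carries calcium through enterocytes and a gene picked out after its values were seen, had 591 and 487 FPKM in labelled double knockouts against 15.3 and 143 FPKM in controls. Its controls differed widely from each other, and it was not called (limma, adjusted p = 0.101), except with control replicate 2 left out. Slc37a2, another target of the list, was called higher only with double knockout replicate 1 left out, among the alternatives run. The calcium channel genes Trpv5 and Trpv6 and the vitamin D hydroxylase gene Cyp24a1 were listed at 0 in every library.

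The other receptors of this class bind retinoic acid or thyroid hormone, and none was called. Rara had 6.28 and 6.71 FPKM in the libraries labelled double knockout, against 10.9 and 10.1 FPKM in controls (log2 fold change -0.61 ± 0.15, SE, limma, adjusted p = 0.0735). Rarg had 2.47 and 2.05 FPKM in labelled double knockouts against 0.741 and 0.996 FPKM in controls (log2 fold change 0.80 ± 0.21, SE, limma, adjusted p = 0.0808). The groups did not overlap for either receptor, with the labelled double knockouts below for Rara and above for Rarg. Rarb was at 0.758 and 1.28 FPKM in labelled double knockouts against 0.217 and 3.36 FPKM in controls, and its controls differed 15.5-fold from each other. Thra, which encodes a thyroid hormone receptor, had 21.5 and 20.6 FPKM in labelled double knockouts against 30.7 and 28.1 FPKM in controls (limma, adjusted p = 0.121). Thrb, its relative, had 4.12 and 3.92 FPKM in labelled double knockouts against 4.81 and 6.57 FPKM in controls (limma, adjusted p = 0.259). In both thyroid hormone receptors the libraries labelled double knockout were below the controls without overlap.

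Of 10 tested genes of retinoic acid metabolism and response, 4 were called higher (40.0%, against 3.77% of all genes) and 0 lower (against 5.8%) in the libraries labelled double knockout, and 9 had an unadjusted p under 0.05 (90.0%, against 28.3%). The list's median log2 fold change was 0.33, and 5 of the 10 lay below 0. Among the genes called higher were Bcmo1, Tgm2 and Rdh7, a retinol dehydrogenase gene. Bcmo1, the enzyme that cleaves beta-carotene, had 56.4 and 133 FPKM in labelled double knockouts against 2.98 and 2.097 FPKM in controls (log2 fold change 4.64 ± 0.43, SE, limma, adjusted p = 0.00809). Tgm2, a transglutaminase induced by retinoic acid, had 282 and 155 FPKM in labelled double knockouts against 31.1 and 27.7 FPKM in controls (log2 fold change 2.79 ± 0.31, SE, limma, adjusted p = 0.0120). Without control replicate 1 these adjusted p-values were 0.0575 and 0.0706, without control replicate 2 they were 0.0655 and 0.0854, and in either case none of the list was called. Leaving out double knockout replicate 1 gave 3 higher and 2 lower, Isx and Lrat, and leaving out replicate 2 gave 3 higher and Isx lower. Isx, an intestinal homeobox gene, had 23.2 and 3.72 FPKM in labelled double knockouts against 86.6 and 80.8 FPKM in controls with all libraries kept (log2 fold change -2.98 ± 0.76, SE, limma, adjusted p = 0.0770). Lrat, the enzyme that esterifies retinol, had 3.85 and 0.880 FPKM in labelled double knockouts against 10.2 and 16.0 FPKM in controls (log2 fold change -2.19 ± 0.50, SE, limma, adjusted p = 0.0602). Both were picked out after their values were seen. Of 5 tested thyroid hormone targets, 2 were called lower (40.0%, against 5.8% of all genes) and 0 higher (against 3.77%). The list's median log2 fold change was -0.19, and 2 of the 5 lay above 0. Those were Alpi and Hr, named after their values were seen. Both lay above the controls without overlap and were not called (limma, adjusted p = 0.178 for Alpi and 0.124 for Hr). Dio1, a deiodinase that activates thyroid hormone, had 3.25 and 7.29 FPKM in labelled double knockouts against 22.5 and 25.8 FPKM in controls (limma, adjusted p = 0.0290). Slc16a10, a transporter of aromatic amino acids and thyroid hormone, had 19.6 and 16.1 FPKM in labelled double knockouts against 51.4 and 46.0 FPKM in controls (limma, adjusted p = 0.0147). Neither was called without control replicate 1 or 2 (adjusted p up to 0.140 for Dio1 and 0.0759 for Slc16a10), nor was Slc16a10 without double knockout replicate 2 (0.0580).

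Nr1d1 and Nr1d2, which encode the haem-binding repressors REV-ERB alpha and beta of the circadian clock, both fell. Nr1d1 had 11.4 and 12.5 FPKM in the libraries labelled double knockout, against 51.4 and 48.4 FPKM in controls. That is 4.18-fold lower, with little spread within either group (log2 fold change -1.98 ± 0.15, SE, limma, adjusted p = 0.00529). The call of Nr1d1 was kept in 13 of 13 alternatives, with adjusted p-values up to 0.0467. Nr1d2 had 5.36 and 9.05 FPKM in labelled double knockouts against 30.4 and 32.2 FPKM in controls, or 4.34-fold lower (log2 fold change -2.01 ± 0.25, SE, limma, adjusted p = 0.0151). Its adjusted p was 0.0794 without control replicate 1 and 0.0945 without control replicate 2. Rora, which encodes an activator that competes with the REV-ERBs for the same DNA motif, was at 0.0493 and 0.101 FPKM in labelled double knockouts against 0.0459 and 0.107 FPKM in controls, under the filter. Nr1d1 lies on chromosome 11 from 98629246 to 98636691 and Nr1d2 on chromosome 14 from 19036570 to 19071620 in mm9.

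Each REV-ERB gene has a thyroid hormone receptor and a retinoic acid receptor as its neighbours. Nr1d1 stands 2.82 kb from Thra and 162.3 kb from Rara, and Nr1d2 stands 166.0 kb from Thrb, which is 578.6 kb from Rarb. In the chromosome 11 cluster the log2 fold changes were -1.98 for Nr1d1, -0.46 for Thra and -0.61 for Rara. In the chromosome 14 cluster they were -2.01 for Nr1d2, -0.40 for Thrb and -0.20 for Rarb. The annotated spans of Nr1d1 and Thra do not overlap. Whether the libraries kept strand is not stated, which would bear on their reads only where transcripts run past those spans, and this was not tested.

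Of 14 tested clock genes, 4 were called lower (28.6%, against 5.8% of all genes) and 0 higher (against 3.77%) in the libraries labelled double knockout. At an unadjusted p under 0.05 there were 9 (64.3%, against 28.3%), and the list's median log2 fold change was -0.65. Those called were Dbp, Tef, Hlf and Per3. Dbp, a clock output transcription factor, had 1.94 and 3.41 FPKM in labelled double knockouts against 35.3 and 31.3 FPKM in controls (log2 fold change -3.25 ± 0.24, SE, limma, adjusted p = 0.00500, and 0.0503 without control replicate 1). Tef, of the same family, had 7.28 and 6.28 FPKM in labelled double knockouts against 39.3 and 35.3 FPKM in controls (log2 fold change -2.30 ± 0.16, SE, limma, adjusted p = 0.00444), and was called whichever library was left out. With control replicate 1 left out 1 clock gene was called lower, with control replicate 2 left out 2 were, and with double knockout replicate 1 or 2 left out 3 or 2 were. Arntl, the activator gene that REV-ERBs repress, was picked out after its values were seen. It had 8.90 and 12.04 FPKM in labelled double knockouts against 5.87 and 6.41 FPKM in controls and was not called (limma, adjusted p = 0.103). Npas2, also picked out after its values were seen, went the other way without overlap. It had 6.32 and 5.25 FPKM in labelled double knockouts against 8.89 and 8.80 FPKM in controls and was not called (limma, adjusted p = 0.112). Clock and Cry1 overlapped between the groups. Over the list, 3 log2 fold changes lay above 0 and 11 below. The hour of sampling is not given, and its part in these differences was not tested.

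Of the pair of xenobiotic receptors, Nr1i3 fell and Nr1i2 was not called. Nr1i3 encodes the constitutive androstane receptor CAR. It had 13.3 and 8.89 FPKM in the libraries labelled double knockout, against 35.2 and 29.2 FPKM in controls. That is 2.90-fold lower, and both libraries labelled double knockout were below both controls (log2 fold change -1.47 ± 0.24, SE, limma, adjusted p = 0.0270). The adjusted p was 0.110 or 0.102 with control replicate 1 or 2 left out, 0.0796 with double knockout replicate 2 left out, and 0.0555 with no filter on low values. Nr1i2, which encodes the pregnane X receptor PXR, had 77.1 and 54.9 FPKM in labelled double knockouts against 75.1 and 66.2 FPKM in controls, with overlap (log2 fold change -0.12 ± 0.22, SE, limma, adjusted p = 0.770). Nr1i3 lies on chromosome 1 from 173144101 to 173152645 in mm9.

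Among known targets of PXR and CAR, 3 of 15 tested genes were called higher (20.0%, against 3.77% of all genes) and 8 lower (53.3%, against 5.8%). At an unadjusted p under 0.05 there were 13 (86.7%, against 28.3%), and the median log2 fold change was -1.10. Abcc2, among the 8 called lower, is also counted in the list of FXR targets. Abcb1a, a drug efflux pump of the brush border, had 5.61 and 7.73 FPKM in the libraries labelled double knockout, against 128 and 164 FPKM in controls, or 21.9-fold lower (log2 fold change -4.27 ± 0.22, SE, limma, adjusted p = 0.00203). It was called whichever library was left out. Cyp2c55, a cytochrome P450, had 9.67 and 24.8 FPKM in labelled double knockouts against 93.8 and 94.9 FPKM in controls (log2 fold change -2.52 ± 0.43, SE, limma, adjusted p = 0.0314). Its adjusted p was 0.121 without control replicate 1 and 0.143 without control replicate 2. The 3 genes called higher were Gstm1, Abcc3 and Cyp2c65, which encode a glutathione transferase, an efflux pump and a cytochrome P450. Cyp3a11, a cytochrome P450 widely used as a readout of PXR and picked out after its values were seen, had 607 and 394 FPKM in labelled double knockouts against 1315 and 626 FPKM in controls and was not called (limma, adjusted p = 0.254). With no filter on low values 2 were called higher and 5 lower. The count called lower was 2 or 3 with control replicate 1 or 2 left out, and 6 or 4 with double knockout replicate 1 or 2 left out. None of the list was called higher with either control left out, and 2 were with either library labelled double knockout left out.

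Pparg, the fatty acid receptor best known for driving adipocyte differentiation, was the one receptor called higher. It had 27.2 and 38.3 FPKM in the libraries labelled double knockout, against 6.75 and 9.80 FPKM in controls. The libraries labelled double knockout were both above both controls, 3.96-fold on average (log2 fold change 1.86 ± 0.26, SE, limma, adjusted p = 0.0182). Without control replicate 1, control replicate 2 or double knockout replicate 2 the adjusted p was 0.0820, 0.0656 or 0.0727. Pparg lies on chromosome 6 from 115311239 to 115440419 in mm9. Ppara, the receptor that drives fatty acid oxidation in the fasted liver, had 22.5 and 11.98 FPKM in labelled double knockouts against 25.2 and 23.1 FPKM in controls (log2 fold change -0.52 ± 0.31, SE, limma, adjusted p = 0.332). Ppard, the third fatty acid receptor of the group, had 37.3 and 25.1 FPKM in labelled double knockouts against 31.1 and 36.3 FPKM in controls, with overlap (limma, adjusted p = 0.758). In controls Pparg was therefore below both relatives, whereas in the libraries labelled double knockout its range overlapped that of Ppard and lay above that of Ppara.

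Of 22 tested PPAR targets, 2 were called higher (9.09%, against 3.77% of all genes) and 1 lower (4.55%, against 5.8%). At an unadjusted p under 0.05 there were 12 (54.5%, against 28.3%), and the median log2 fold change was -0.07. Of the 22, 9 had a value above 0 and 13 below. Cd36, a target picked out after its values were seen, had 15.7 and 2.87 FPKM in labelled double knockouts against 59.0 and 75.7 FPKM in controls. It was lower without overlap and was not called with all libraries kept (log2 fold change -3.08 ± 0.69, SE, limma, adjusted p = 0.0595). Cd36 was called lower with either library labelled double knockout left out, which leaves 1 library in that group. Angptl4, a secreted inhibitor of lipoprotein lipase, had 267 and 318 FPKM in the libraries labelled double knockout, against 26.5 and 11.8 FPKM in controls (log2 fold change 3.96 ± 0.39, SE, limma, adjusted p = 0.00877). It was called whichever library was left out. Ehhadh, an enzyme of peroxisomal fatty acid oxidation, was the target called lower, at a mean of 37.9 FPKM in the libraries labelled double knockout and 70.8 FPKM in controls, and it was not called with any 1 library left out or with the FPKM of single libraries.

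The receptors for oxysterols and bile acids were not called. Nr1h3, which encodes the oxysterol receptor LXR alpha, had 67.4 and 42.7 FPKM in the libraries labelled double knockout, against 55.9 and 46.4 FPKM in controls, with overlap (log2 fold change 0.07 ± 0.26, SE, limma, adjusted p = 0.883). Nr1h2, its relative LXR beta, had 39.8 and 34.4 FPKM in labelled double knockouts against 51.5 and 41.9 FPKM in controls (limma, adjusted p = 0.315). Nr1h4, the bile acid receptor FXR, had 27.9 and 24.2 FPKM in labelled double knockouts against 19.1 and 20.5 FPKM in controls (log2 fold change 0.38 ± 0.16, SE, limma, adjusted p = 0.202). Its groups did not overlap, and it ranked 8 in the libraries labelled double knockout and 15 in controls. Nr0b2 encodes SHP, a receptor without a DNA-binding domain that FXR induces. It had 4.63 and 5.73 FPKM in labelled double knockouts against 8.35 and 2.12 FPKM in controls, which differed 3.93-fold from each other, and its mean was 5.18 FPKM in labelled double knockouts and 5.23 FPKM in controls although its log2 fold change was 0.19. Nr5a2, an orphan receptor that SHP represses, had 6.60 and 7.24 FPKM in labelled double knockouts against 6.84 and 8.53 FPKM in controls (limma, adjusted p = 0.681).

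Of 11 tested LXR targets, 1 was called higher (9.09%, against 3.77% of all genes) and 1 lower (9.09%, against 5.8%), with 6 at an unadjusted p under 0.05 (54.5%, against 28.3%) and a median log2 fold change of -0.87. Abcg5, a subunit of the pump that returns sterols to the lumen, had 70.8 and 36.9 FPKM in the libraries labelled double knockout, against 178 and 150.0 FPKM in controls (log2 fold change -1.66 ± 0.34, SE, limma, adjusted p = 0.0484). Fasn, the fatty acid synthase, had 19.2 and 19.3 FPKM in labelled double knockouts against 9.05 and 8.47 FPKM in controls (log2 fold change 1.05 ± 0.15, SE, limma, adjusted p = 0.0182). Abcg5 was not called without control replicate 1, control replicate 2 or double knockout replicate 2 (adjusted p up to 0.157), and Fasn was not called when any 1 library was left out (up to 0.10). Without double knockout replicate 1, 4 LXR targets were called lower, and with any other library left out none was called in either direction. With no filter, quantile normalization, FPKM of single libraries or no intensity trend 0 were called lower and 1 higher.

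Of 5 tested FXR targets, 1 was called higher (20.0%, against 3.77% of all genes) and 2 lower (40.0%, against 5.8%). Their median log2 fold change was -0.96. The list does not separate targets that FXR induces from targets that it represses. Slc51a, a subunit of the basolateral bile acid exporter, had 30.7 and 42.6 FPKM in the libraries labelled double knockout, against 198 and 199.6 FPKM in controls (log2 fold change -2.42 ± 0.21, SE, limma, adjusted p = 0.00718). Slc10a2, the apical bile acid importer, had 5.98 and 3.94 FPKM in labelled double knockouts against 0.414 and 1.26 FPKM in controls (log2 fold change 1.72 ± 0.32, SE, limma, adjusted p = 0.0394). Its control mean was 0.836 FPKM, so it passed the filter of 1 FPKM only through the libraries labelled double knockout. With a filter of 5 FPKM, 3 FXR targets were tested, with 0 called higher and Slc51a among the 2 called lower. The other target called lower was the efflux pump gene Abcc2, which was not called with no filter or with any 1 library left out, and no FXR target was called with either control left out. Without control replicate 1 or 2 the adjusted p of Slc51a was 0.0550 or 0.0577, and leaving out any 1 library raised that of Slc10a2 to between 0.0745 and 0.120. The bile acid feedback hormone gene Fgf15 lay under the filter, at 0.0940 FPKM and a value listed at 0 in the libraries labelled double knockout and at 0.276 and 0.224 FPKM in controls.

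The retinoid X receptors are the partners with which PPARs, LXRs, FXR, PXR, CAR, VDR, RARs and thyroid hormone receptors bind DNA. Rxra had 22.4 and 17.0 FPKM in the libraries labelled double knockout, against 35.2 and 32.9 FPKM in controls, or 1.73-fold lower without overlap (log2 fold change -0.77 ± 0.19, SE, limma, adjusted p = 0.0698). Rxrb had 14.0 and 11.7 FPKM in labelled double knockouts against 19.9 and 16.3 FPKM in controls (log2 fold change -0.46 ± 0.18, SE, limma, adjusted p = 0.183). Neither was called, and Rxrg was listed at 0 in every library. The partners together summed to 36.4 and 28.6 FPKM in the libraries labelled double knockout and to 55.0 and 49.3 FPKM in controls.

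Among coactivators and corepressors, the proteins that receptors recruit, 1 of 24 tested genes was called lower (4.17%, against 5.8% of all genes) and 0 higher (against 3.77%). At an unadjusted p under 0.05 there were 7 (29.2%, against 28.3%), shares near those of all genes, and the median log2 fold change was 0.05. The one called was Ppargc1a, which encodes the coactivator PGC1 alpha of PPARs and oestrogen-related receptors. It had 2.16 and 2.66 FPKM in the libraries labelled double knockout, against 11.8 and 13.1 FPKM in controls, or 5.17-fold lower (log2 fold change -1.98 ± 0.17, SE, limma, adjusted p = 0.00745). The adjusted p was 0.0503 without control replicate 1 and 0.0554 without control replicate 2. Esrra, the orphan receptor that acts with PGC1 alpha on mitochondrial genes, had 107 and 83.1 FPKM in labelled double knockouts against 145 and 150.1 FPKM in controls. Its groups did not overlap, and it was not called (log2 fold change -0.64 ± 0.19, SE, limma, adjusted p = 0.104). Esrrg, its relative, had 2.34 FPKM in both libraries labelled double knockout, against 1.35 and 1.15 FPKM in controls (log2 fold change 0.57 ± 0.19, SE, limma, adjusted p = 0.129). None of 14 tested targets of these receptors and PGC1 was called by limma in either direction, with 3 at an unadjusted p under 0.05 (21.4%, against 28.3% of all genes) and a median log2 fold change of -0.16, and 1 was called higher with control replicate 1 left out. The most abundant, Atp5b of the mitochondrial ATP synthase, had 1397 and 1352 FPKM in labelled double knockouts against 1518 and 1824 FPKM in controls (limma, adjusted p = 0.482).

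Among the steroid receptors, Nr3c1, the glucocorticoid receptor, had 20.9 and 21.5 FPKM in the libraries labelled double knockout, against 27.3 and 32.0 FPKM in controls (log2 fold change -0.46 ± 0.16, SE, limma, adjusted p = 0.138). Nr3c2, the mineralocorticoid receptor of sodium balance, had 5.54 and 5.35 FPKM in labelled double knockouts against 8.86 and 13.0 FPKM in controls (log2 fold change -0.87 ± 0.22, SE, limma, adjusted p = 0.0754). Both lay below the controls without overlap and neither was called here, although the authors' deposited table called Nr3c2, at 5.41 FPKM in the knockout and 10.8 FPKM in the control. Esr1, the oestrogen receptor alpha gene, had 0.0549 and 0.0717 FPKM in labelled double knockouts against 0.0119 FPKM and a value listed at 0 in controls, and the progesterone receptor gene Pgr was listed at 0 in every library. None of 11 tested glucocorticoid and mineralocorticoid targets was called by limma, with 2 at an unadjusted p under 0.05 (18.2%, against 28.3% of all genes) and a median log2 fold change of 0.11. Fkbp5, a glucocorticoid-induced chaperone gene picked out after its values were seen, had 219 and 115 FPKM in labelled double knockouts against 57.9 and 41.5 FPKM in controls, a mean 3.36-fold higher (log2 fold change 1.68 ± 0.36, SE, limma, adjusted p = 0.0548). It was called with quantile normalization, with the FPKM of single libraries, with a replicate block and without double knockout replicate 2. The most abundant, the kinase gene Sgk1, had 233 and 230.0 FPKM in labelled double knockouts against 244 and 187 FPKM in controls (limma, adjusted p = 0.753).

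The remaining receptors are orphans, without an agreed natural ligand, and none was called. Nr2f6, the most abundant of them, had 37.1 and 34.5 FPKM in the libraries labelled double knockout, against 42.1 and 31.3 FPKM in controls, with overlap (limma, adjusted p = 0.960). Nr2c1, which encodes a testicular receptor, came closest to the threshold. It had 2.16 and 2.53 FPKM in labelled double knockouts against 4.89 and 4.94 FPKM in controls, or 2.096-fold lower (log2 fold change -0.82 ± 0.17, SE, limma, adjusted p = 0.0513). Nr2c1 was called in 2 of 12 alternatives, with quantile normalization (adjusted p = 0.0426) and without the intensity trend (0.0464). Its relative Nr2c2 had 3.55 and 2.75 FPKM in labelled double knockouts against 3.63 and 5.50 FPKM in controls (limma, adjusted p = 0.330). Nr6a1, the germ cell nuclear factor, had 1.70 and 1.96 FPKM in labelled double knockouts against 3.13 and 3.18 FPKM in controls, without overlap (log2 fold change -0.56 ± 0.18, SE, limma, adjusted p = 0.124). Nr2f2, a COUP transcription factor gene, had 0.975 and 1.69 FPKM in labelled double knockouts against 1.58 and 1.41 FPKM in controls, its relative Nr2f1 was listed at 0 throughout, and Nr2e3, known from photoreceptors, lay under the filter at 0.168 and 0.933 FPKM in labelled double knockouts against 0.985 and 0.719 FPKM in controls.

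The NR4A receptors are immediate early genes, induced within a short time of a stimulus. Nr4a2 had 1.87 and 1.50 FPKM in the libraries labelled double knockout, against 1.34 and 1.24 FPKM in controls (log2 fold change 0.23 ± 0.20, SE, limma, adjusted p = 0.512). Nr4a1 was at 0.298 and 0.303 FPKM in labelled double knockouts against 0.324 and 0.252 FPKM in controls, and Nr4a3 at 0.0449 FPKM and a value listed at 0 in labelled double knockouts against 0.0585 and 0.171 FPKM in controls. Both lay under the filter. None of 14 tested immediate early genes was called by limma, with 3 at an unadjusted p under 0.05 (21.4%, against 28.3% of all genes) and a median log2 fold change of 0.11. The most abundant, Klf4, had 79.9 and 135.5 FPKM in labelled double knockouts against 96.7 and 146 FPKM in controls (limma, adjusted p = 0.755).

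For the family members outside the 38, Hnf4g, the paralog of Hnf4a, had 80.7 and 57.8 FPKM in the libraries labelled double knockout, against 170 and 238 FPKM in controls (log2 fold change -1.54 ± 0.26, SE, limma, adjusted p = 0.0315). It was not called without control replicate 1, control replicate 2 or double knockout replicate 2 (adjusted p up to 0.126), and Hnf4a was not called without either control (up to 0.0875).

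**Figure D5:**
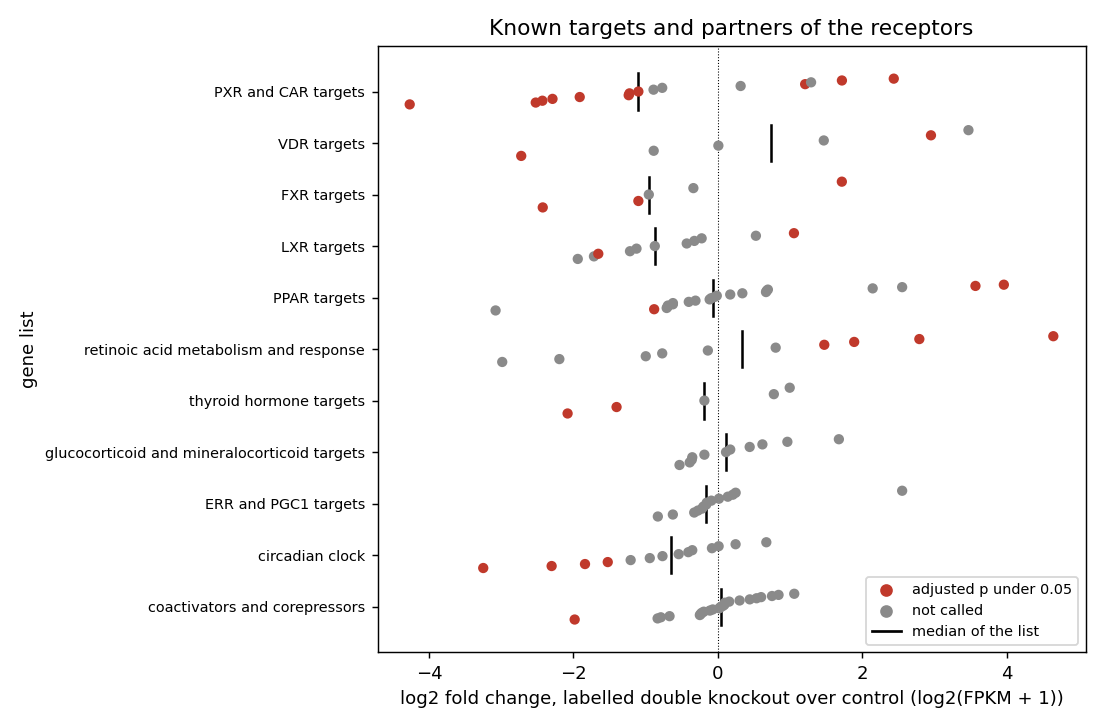
Each point is 1 tested gene of a list of known targets or partners of the receptors, placed by its log2 fold change of labelled double knockout over control on the log2(FPKM + 1) scale, in red where the adjusted p was under 0.05, with a black line at the list's median. The median is -1.10 for PXR and CAR targets, -0.65 for clock genes and 0.05 for coactivators and corepressors. Red points lie on both sides of 0 for the targets of PXR and CAR, VDR, FXR, LXR and the PPARs.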

How the data were processed

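Values were analysed from 4 libraries, 2 labelled double knockout and 2 control. The submitters' processing notes name the build mm9 and, without roles, Cuffdiff, Cuffnorm, Cufflinks (version 2.1.1) and TopHat2 (version 2.0.9). The expression table that the authors deposited states no unit. Its 4 columns were treated as FPKM normalized between libraries, because they lie close to the FPKM in the authors' files of single libraries, which served as an alternative. The authors' deposited comparison table gives group FPKM, p-values and q-values, and was not used for the tests here. No depth can be had from FPKM, so errors of counting and floors of detection are not given.

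Values on rows sharing a symbol were summed (160 symbols), 1035 short RNA symbols were left out, and 22457 symbols were kept. The 10883 with a mean of at least 1 FPKM were tested with limma (version 3.58.1, R version 4.3.3) on log2(FPKM + 1), a scale that understates the change of low genes, with a genotype term and an intensity trend, two-sided, with Benjamini-Hochberg adjustment over all genes tested and a threshold of 0.05. The procedure was also run on simulated data, with planted changes larger than most receptors showed and with spreads shuffled over genes. That run cannot show how the procedure performs at smaller changes or with the intensity trend. With 2 libraries a group, p-values rest on the spread of 4 libraries, and an exact permutation test cannot go below p = 0.333.

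The receptors and gene lists were chosen with earlier results of these data known. All 38 receptors were named whatever their values. From each other list the 2 called genes with the greatest log2 fold change and no overlap were named, or the most abundant tested gene where none was called. Other called genes of a list, and those marked in the text, were added after their values were seen. Some genes that this rule names are not reported here. Fold changes and differences are labelled double knockout over or minus control. Gene positions come from the deposited files (mm9, starts shifted to count from 1). Promoters come from RefSeq (GRCm38.p6), where 36 of the 38 receptors matched and Thra and Nr3c1 did not. Alternatives changed the pseudocount (0.1 and 0.5), the filter (none but a mean above 0, or 5 FPKM), the scaling, the source of the FPKM and the variance trend, added a replicate block, and left out each library.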

Additional observations from a re-analysis of the deposited data

How the results depend on the processing

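Of 381 alternative values over the 30 tested receptors, 353 kept direction and side of the threshold, 10 lost a call, 2 gained one and 16 changed sign in 8 receptors that were not called (absolute log2 fold change at most 0.20 in the reported fit). No called receptor changed direction. Receptors called higher numbered 1, and 0 to 1 with a library left out. Receptors called lower numbered 4, and 1 to 4 with a library left out. Over all genes, 410 were called higher and 631 lower. With no filter 268 were called higher, where 16712 genes were tested, and leaving out a library gave 67 to 309 higher and 97 to 384 lower, with fewer samples in each fit. FPKM estimated for each library alone moved the median log2 fold change of all genes to 0.17, and 23 of 30 receptors lay below that median, as many as below the median of the reported fit. The difference between replicates 1 and 2 did not correlate between the groups (r = -0.0048 across 10883 genes, which are not independent replicates). With 1 such difference in each group, this cannot decide whether same-numbered libraries share a litter, batch or day, which the sources do not state. The replicate block gave 1 receptor called higher and 4 lower, and 310 and 476 of all genes. Of the genes named by rule it ended the calls of Hnf4g (limma, adjusted p = 0.0606) and Slc10a2 (0.0681). Among the other target and clock genes named it ended those of Ehhadh, Abcc2, Cyp2c65 and Hlf and added that of Fkbp5, and it gave 3 LXR targets called lower against 1, 3 PPAR targets higher against 2, and 6 PXR and CAR targets lower against 8. With no filter Nr1i3, Hnf4g, Abcg5, Slc10a2, Cyp2c55, Cldn2 and Dio1 were not called (limma, adjusted p from 0.0555 to 0.0864). Abcg5 was also not called with quantile normalization (0.0586), FPKM of single libraries (0.0503) or no intensity trend (0.0525), nor Slc10a2 with a pseudocount of 0.1 (0.0540). The 10 most abundant receptors in controls were the same 10 with the FPKM of single libraries. Their order was not the same, and receptor ranks differed by up to 3 places in controls and 2 in labelled double knockouts. The FPKM give no depth, and how depth bears on the calls was not tested.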
